A study of Homo sapiens with 6 samples.

Results

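The nuclear factor I (NFI) family has 4 genes in the human genome, NFIA, NFIB, NFIC and NFIX, and all 4 were present among the 25827 genes and other features of a nascent transcription table. They were picked by gene symbol, and the family was chosen with earlier results of these data known, among them a shift of NFIA signal towards the 3' end in the SFPQ knockdown. Values of the members in siSFPQ over siCtrl are therefore given as a description, with no test. SBC-3 cells, an established line from a small cell lung cancer and labelled wild type, were reverse transfected with siRNA at 10 nM and permeabilized after 72 h. Nascent RNA was read by PRO-seq, which maps RNA polymerase caught in the act of transcription, in 2 libraries with siSFPQ-2, 2 with siSFPQ-3 (both siRNAs against SFPQ, an RNA-binding protein of paraspeckles) and 2 with siCtrl. Whether both libraries of each group stem from different cultures is not in the labels, so p-values measure only their spread, which may be technical.

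NFI proteins are transcription factors that bind DNA as dimers, through a palindrome made of TTGGC and its complement, and were first known as host factors for adenovirus replication and from transcription of viral and cellular genes. In the nervous system NFIA and NFIB act in the switch of progenitors to glia, and NFIX in neural and muscle stem cells. NFIC is known for its part in tooth root formation. NFIB is amplified in mouse and human small cell lung cancer and promotes its metastasis, where it is tied to wide opening of chromatin.

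Since the family itself binds TTGGC, the 250 bases before the first RefSeq start of each gene (GRCh38.p14) are shown, in lower case with each TTGGC or its complement GCCAA in capitals. The windows are chr1:61076977-61077226 (plus strand) for NFIA, chr9:14322388-14322637 (minus strand) for NFIB, chr19:3359380-3359629 (plus strand) for NFIC and chr19:12995225-12995474 (plus strand) for NFIX. The NFIB window lies inside the span of the gene, since another listed NFIB start lies further upstream.
NFIA: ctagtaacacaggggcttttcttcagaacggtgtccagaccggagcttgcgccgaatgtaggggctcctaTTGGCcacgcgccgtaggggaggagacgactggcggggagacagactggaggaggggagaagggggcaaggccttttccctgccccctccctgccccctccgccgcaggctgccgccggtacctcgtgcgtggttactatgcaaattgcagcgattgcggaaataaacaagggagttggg
NFIB: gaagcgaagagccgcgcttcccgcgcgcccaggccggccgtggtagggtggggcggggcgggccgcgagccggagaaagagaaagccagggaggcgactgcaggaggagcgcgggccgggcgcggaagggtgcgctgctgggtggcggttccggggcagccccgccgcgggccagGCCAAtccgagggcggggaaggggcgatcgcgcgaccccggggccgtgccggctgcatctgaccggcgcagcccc
NFIC: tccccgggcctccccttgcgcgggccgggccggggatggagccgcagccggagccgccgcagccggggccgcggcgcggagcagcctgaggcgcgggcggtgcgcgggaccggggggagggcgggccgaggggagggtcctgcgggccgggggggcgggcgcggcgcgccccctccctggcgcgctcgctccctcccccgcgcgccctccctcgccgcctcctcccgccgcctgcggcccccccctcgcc
NFIX: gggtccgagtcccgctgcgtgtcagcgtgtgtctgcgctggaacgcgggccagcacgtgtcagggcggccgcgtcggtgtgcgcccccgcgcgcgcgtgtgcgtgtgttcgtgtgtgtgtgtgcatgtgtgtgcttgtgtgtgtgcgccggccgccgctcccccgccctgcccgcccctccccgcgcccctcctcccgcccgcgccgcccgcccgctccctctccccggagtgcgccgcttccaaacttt
NFIA held 1 match, whose first base lies 180 bases before the start, and NFIB held 1, at 75 bases before the start. In both windows the match overlaps a CCAAT box read on either strand (ATTGG), the only one in each. No match was found in the NFIC and NFIX windows, and the whole palindrome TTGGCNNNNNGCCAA in none of the 4. Over the first listed starts of 27305 genes, 41.3% of windows of this length held TTGGC on either strand, 33.0% held CCAAT and 0.0330% held the palindrome. GGGCGG, the core of the GC box, was matched 0 times in NFIA, 3 times in NFIB, 3 times in NFIC and 6 times in NFIX, on either strand, and in 42.3% of all windows. NFIA thus differed from its relatives in its letters, with 62.0% G and C against 78.4% in NFIB, 87.2% in NFIC and 74.8% in NFIX. These matches describe letters and are not evidence of binding. RefSeq lists further starts for 3 of the genes (3 starts for NFIA, 10 for NFIB and 5 for NFIX), of which 1, 6 and 2 have TTGGC on either strand before them. The start used by SBC-3 cells was not determined.

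Reads recovered over all features numbered 12072813 to 18475158 per library. The test took in the 21773 features that reached a normalized value of 10 in 2 libraries or more, all 4 members among them. SFPQ itself had 1825, 1972, 1922 and 2466 normalized reads in siSFPQ libraries, against 2294 and 2435 in siCtrl (log2 fold change -0.22, SE 0.11, limma adjusted p = 0.137). An siRNA acts on the finished transcript, so nascent reads do not check the knockdown. Of 10 neuroendocrine small cell markers 5 had a value in the table used, with sums of 295 to 520 in siSFPQ and 424 to 457 in siCtrl libraries. SYP was the largest part of these sums and was not called (log2 fold change 0.14, limma adjusted p = 0.463). With siSFPQ-2 alone SYP was higher (0.56, limma adjusted p = 0.0261), and with siSFPQ-3 alone it was not called (-0.28, limma adjusted p = 0.216). DLL3 fell (-0.83, limma adjusted p = 0.00730), while NEUROD1 (-0.94, limma adjusted p = 0.0506) and CHGB (-0.67, limma adjusted p = 0.152) were not called. INSM1, a zinc finger factor that marks neuroendocrine cells, had no value in the table used, and its profile signal was at most 0.217 per bin. Summed epithelial markers (5 of 7 with a value) were 3102 to 4156 in siSFPQ and 1117 to 1216 in siCtrl, fibroblast markers (2 of 7) 411 to 582 and 224 to 255, immune markers (2 of 7) 475 to 740 and 732 to 745, and the 1 endothelial marker with a value, TEK, 88.2 to 145 and 38.3 to 48.7. Within the epithelial list KRT8, KRT18 and ELF3 rose (log2 fold changes 1.40, 3.24 and 2.89, limma adjusted p = 9.36e-06, 7.20e-07 and 1.57e-07), CLDN7 fell (-0.80, limma adjusted p = 0.0117) and EPCAM was not called (0.10, limma adjusted p = 0.609). Of the immune markers CD68 fell (-0.49, limma adjusted p = 0.0119). ITGAX was higher (2.83), but at 4.78 and 2.22 in siCtrl it passed the filter only through siSFPQ libraries, so no p is given. None of 6 glial markers had a value in the table, while GFAP had a profile signal of 41.8 to 53.7 per bin in siSFPQ and 31.8 and 38.3 in siCtrl. The part of these lists in the results that follow was not tested, and in bulk libraries fewer cells of a type and less RNA per cell cannot be told apart.

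With SFPQ siRNA, NFIA was 2.53 times as high, NFIX was 2.70 times as high in siCtrl, and NFIB and NFIC lay close to their control level. By the call used throughout (limma adjusted p under 0.05), 48.0% of all tested features were called in siSFPQ over siCtrl, 24.8% higher and 23.2% lower. The lower calls numbered 5044, but 2463 without siCtrl library 1 and 2529 without siCtrl library 2. The same call takes in 2 of the 4 members, NFIA as higher and NFIX as lower. Since that comparison entered the choice of the family, nothing is read from the count.

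NFIA (ENSG00000162599, chromosome 1, 61077227 to 61462788) was the member with the fewest reads. It had 642 and 553 normalized reads in siSFPQ-2 libraries and 922 and 864 in siSFPQ-3 libraries, against 285 and 305 with siCtrl. All 4 siSFPQ libraries lay above both siCtrl libraries. The mean was 745 ± 176 in siSFPQ (SD, n = 4) and 295 ± 14.2 in siCtrl (SD, n = 2), which corresponds to 1.31 on the log2 scale (SE 0.11). A larger log2 fold change was seen for 6.37% of tested features. The counts behind these values were 499 to 857 reads in siSFPQ and 275 to 357 reads in siCtrl.

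NFIX (ENSG00000008441, chromosome 19, 12995475 to 13098796) went the opposite way. Its values were 1054 and 746 in siSFPQ-2 libraries and 1104 and 869 in siSFPQ-3 libraries, against 2456 and 2631 with siCtrl. No siSFPQ library reached a siCtrl library. Means were 943 ± 166 in siSFPQ (SD, n = 4) and 2544 ± 124 in siCtrl (SD, n = 2), or -1.45 on the log2 scale (SE 0.14), and 1.78% of tested features had a lower one.

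NFIB (ENSG00000147862, chromosome 9, 14081843 to 14532077) carried most of the family's reads. It had 27179 and 24440 normalized reads in siSFPQ-2 libraries and 28044 and 21315 in siSFPQ-3 libraries, against 27510 and 25953 with siCtrl, so that the groups overlapped and the spread was widest within siSFPQ-3. It ranked 12 of the 21773 tested features by mean, and 3 among the 14020 protein-coding ones. These ranks use reads per gene and are not corrected for its span of 450 kb. Per kb of span, NFIB ranked 1653 among 13570 protein-coding genes. The means of 25245 ± 3037 in siSFPQ (SD, n = 4) and 26731 ± 1101 in siCtrl (SD, n = 2) gave a fold change of -0.09 on the log2 scale (SE 0.19).

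NFIC (ENSG00000141905, chromosome 19, 3359630 to 3469217) lies on the same chromosome as NFIX and overlapped between siSFPQ and siCtrl with the siRNAs pooled. Its values were 3222 and 2965 in siSFPQ-2 libraries and 2721 and 2622 in siSFPQ-3 libraries, against 2934 and 2975 with siCtrl (log2 fold change -0.04, SE 0.09). The siSFPQ-3 libraries alone lay below both siCtrl libraries. Of all tested features, 61.3% had the 4 siSFPQ values on one side of both siCtrl values, as 2 of the 4 members did. In the authors' deposited table the log2 fold changes of the members were 1.34 for NFIA, -0.08 for NFIB, -0.04 for NFIC and -1.43 for NFIX.

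**Figure D1:**
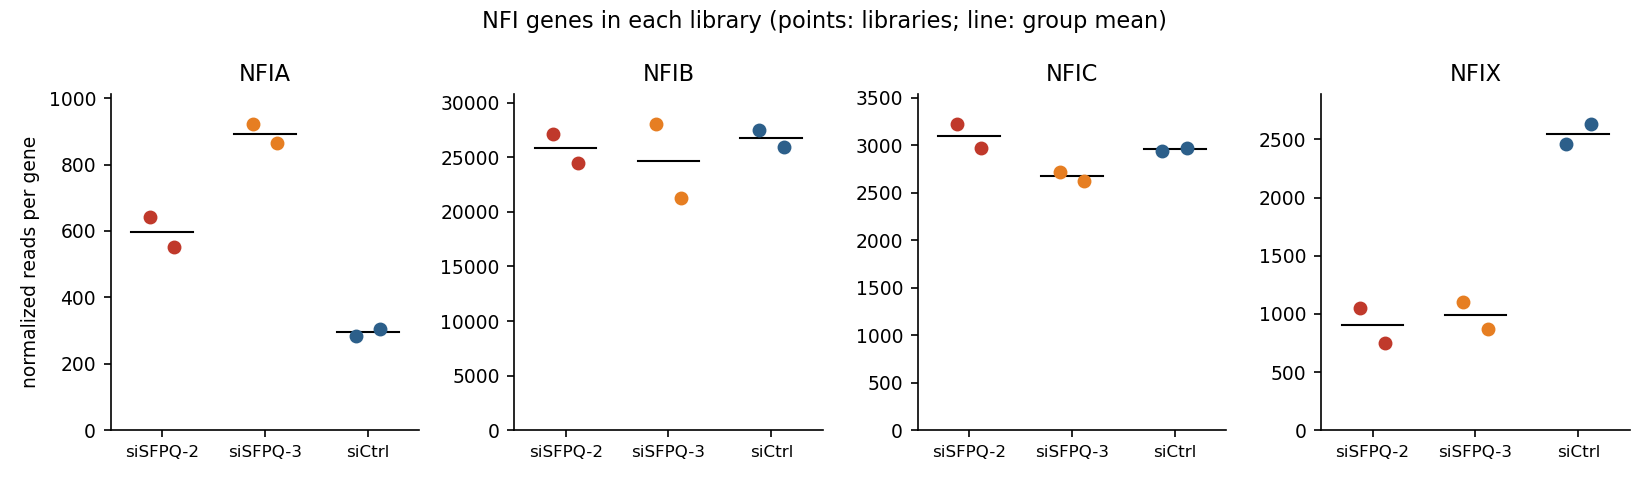
Normalized reads of NFIA, NFIB, NFIC and NFIX (vertical axes from 0, one scale per gene) in the libraries of siSFPQ-2, siSFPQ-3 and siCtrl; points are libraries and lines group means. NFIA is highest with siSFPQ-3 (922 and 864) and NFIX is lower with either SFPQ siRNA than with siCtrl. The points of NFIB overlap, and in NFIC those of siSFPQ-3 (2721 and 2622) lie below those of siSFPQ-2 and siCtrl.

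**Figure D2:**
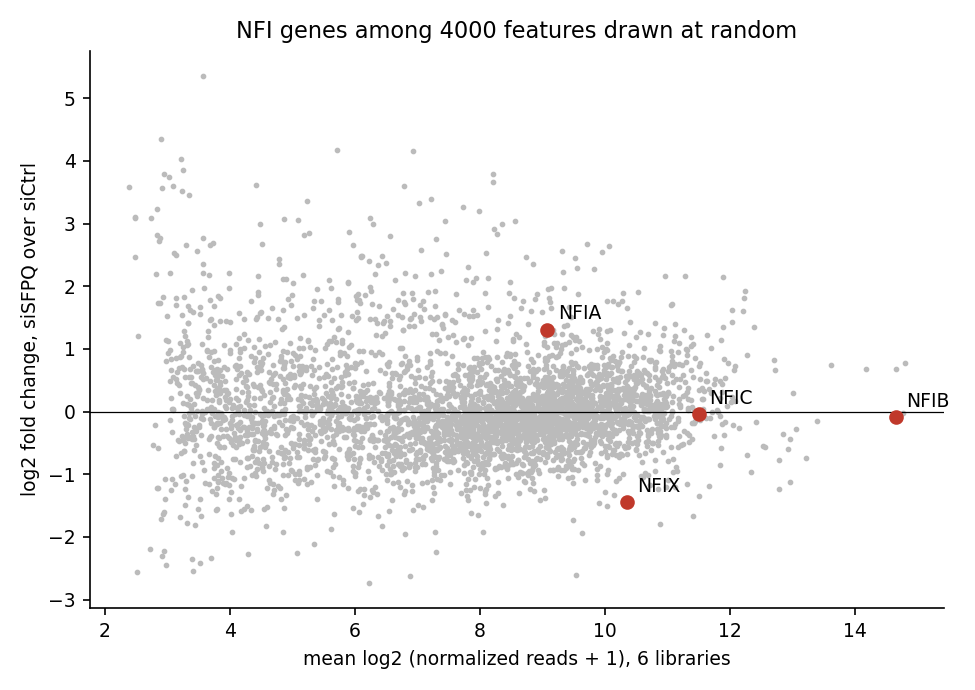
Log2 fold change of siSFPQ over siCtrl (vertical axis) against the mean log2 of normalized reads plus 1 over the 6 libraries (horizontal axis), for a random sample of features (grey) and the 4 NFI genes (red). NFIB sits at the far right near 0, NFIA at 1.31 and NFIX at -1.45.

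To compare members with each other, reads were divided by the RefSeq span of each gene, 386 kb for NFIA, 450 kb for NFIB, 110 kb for NFIC and 103 kb for NFIX. The length of the transcript model that was counted can be shorter than this. Every library gave the same order, with NFIB first, then NFIC, NFIX and NFIA. Normalized reads per kb were 56.1 ± 6.74 in siSFPQ and 59.4 ± 2.44 in siCtrl for NFIB, and 26.3 ± 2.45 and 27.0 ± 0.270 for NFIC (SD, n = 4 and n = 2). For NFIX the level per kb was 9.13 ± 1.60 in siSFPQ and 24.6 ± 1.196 in siCtrl, and for NFIA 1.93 ± 0.457 and 0.764 ± 0.0369. NFIC and NFIX were thus close neighbours in siCtrl libraries (26.8 and 27.2 reads per kb for NFIC, 23.8 and 25.5 for NFIX) and well apart in siSFPQ libraries. The median over 13570 protein-coding genes with a span was 15.8 reads per kb, which places NFIA far below it.

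As a share of the family's reads in a library, NFIB made up 84.6% ± 1.096 in siSFPQ and 82.2% ± 1.03 in siCtrl, and NFIC 9.72% ± 0.955 and 9.09% ± 0.352 (SD, n = 4 and n = 2). NFIX took 3.16% ± 0.375 in siSFPQ and 7.83% ± 0.605 in siCtrl, and NFIA 2.53% ± 0.689 and 0.907% ± 0.0698. NFIX exceeded NFIA in both siCtrl libraries by a wide margin. In siSFPQ libraries the shares were closer, at 2.00, 1.93, 2.81 and 3.37% for NFIA and 3.28, 2.60, 3.37 and 3.39% for NFIX. These shares are not corrected for gene span. In the second siSFPQ-3 library, where they were closest, reads per kb were 2.24 for NFIA and 8.41 for NFIX. The family sum was 29815 ± 3290 in siSFPQ and 32524 ± 933 in siCtrl (SD, n = 4 and n = 2), with overlapping libraries. Most of the family's reads thus came from a gene whose groups overlapped.

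Both siRNAs are given side by side, and they share the siCtrl libraries. NFIA had a log2 fold change of 1.60 with siSFPQ-3 and 1.01 with siSFPQ-2, and NFIX of -1.38 and -1.52. For NFIB the values were -0.13 with siSFPQ-3 and -0.05 with siSFPQ-2, and for NFIC -0.15 and 0.07. Over all features, 43.4% were called with siSFPQ-3 and 39.2% with siSFPQ-2.

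The difference between the siRNAs did not enter the choice of the family and was tested, with p adjusted over all 21773 features, of which 0.101% were called. NFIA was higher with siSFPQ-3 by a log2 fold change of 0.58 (SE 0.12), with both siSFPQ-3 libraries above both siSFPQ-2 libraries, and missed the threshold (limma adjusted p = 0.0989). It passed with DESeq2 on the recovered whole reads (adjusted p = 0.0309) and with limma and a replicate block (adjusted p = 0.0110). NFIA missed the threshold with equal totals per library and with only the groups compared. With single libraries left out its log2 fold change ranged between 0.48 and 0.69. Whether the replicate numbers pair the libraries is not in the labels. The result depends on that choice and on the method used. NFIC was lower with siSFPQ-3 by 0.21 on the log2 scale (log2 fold change -0.21, SE 0.11, limma adjusted p = 0.459). NFIX (0.14, SE 0.17, limma adjusted p = 0.782) and NFIB (-0.08, SE 0.22, limma adjusted p = 0.929) overlapped between the siRNAs. A p that misses the threshold does not show that the siRNAs act alike.

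The same libraries also came as profiles, in which each gene is divided into 500 bins. Bins 101 to 400 were read as the gene body, with 100 bins before and 100 after it, because the mean share of signal peaked at bin 101 in every file. The sources used here give neither bin width, strand nor scaling, so values are compared within a profile only. The files sort profiles into classes labelled up (3402 profiles), ns (46081) and down (2528). If the classes rest on siSFPQ over siCtrl, the direction of change in class up or down follows from the sorting. NFIA was found in up, NFIB and NFIC in ns, and NFIX has 2 profiles, in down and in ns, under the same gene identifier. Which transcript model stands behind each profile, the 2 of NFIX among them, is not given, so upstream bins can lie within the span of a gene.

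Along NFIA the added signal lay mostly near the 3' end of the gene. In the 5' segment of the body (bins 101 to 200) NFIA had a mean signal per bin of 6.55 and 5.80 in siSFPQ-2 libraries and 9.54 and 8.89 in siSFPQ-3 libraries, against 4.88 and 5.41 with siCtrl. In the 3' segment (bins 301 to 400) it had 23.7 and 19.5 in siSFPQ-2 libraries and 29.4 and 27.2 in siSFPQ-3 libraries, against 3.30 and 4.25 with siCtrl. The fold of siSFPQ over siCtrl was 1.496 in the 5' segment, 2.55 in the middle segment and 6.61 in the 3' segment. It was 9.32 in the last 30 bins of the body (bins 371 to 400), where siSFPQ libraries had 34.5 to 50.4 per bin and siCtrl libraries 3.52 and 5.75.

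Put as shares of the body's signal, the 3' segment of NFIA held 60.8% ± 2.05 in siSFPQ (SD, n = 4) and 30.7% ± 2.43 in siCtrl (SD, n = 2). The 5' segment held 18.6% ± 0.838 in siSFPQ and 42.0% ± 1.05 in siCtrl. Of the whole difference in body signal between the groups, 73.2% fell in the 3' segment and 40.03% in the last 30 bins. Divided into 30 blocks of 10 bins, the body had 24 blocks in which all siSFPQ libraries exceeded both siCtrl libraries, 5 in the 5' segment, 9 in the middle and 10 in the last, and none in which they were all lower.

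Local peaks stood out within the 3' segment. In bins 311 to 320 NFIA had 49.4 and 43.4 per bin in siSFPQ-2 libraries and 50.6 and 48.2 in siSFPQ-3 libraries, against 4.72 and 5.44 with siCtrl. In bins 381 to 390 the values were 64.3 and 56.3 in siSFPQ-2 libraries and 73.3 and 71.9 in siSFPQ-3 libraries, against 4.11 and 7.65 with siCtrl. The single highest bin of the body was bin 390 in 3 siSFPQ libraries and bin 317 in the first siSFPQ-2 library, but bin 182 in both siCtrl libraries. These windows were chosen after the profile was seen. With both left out, the 3' segment still had 11.96 to 21.2 per bin in siSFPQ libraries and 3.03 and 3.67 in siCtrl, a fold of 5.04, and the body as a whole a fold of 2.66.

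Signal in the upstream bins of NFIA did not follow the body. Over bins 1 to 100 NFIA had 35.8 and 24.9 in siSFPQ-2 libraries and 49.4 and 35.9 in siSFPQ-3 libraries, against 33.2 and 26.4 with siCtrl, with overlap. Its upstream signal per bin was 2.64 ± 0.348 times that of the body in siSFPQ and 7.38 ± 1.90 times in siCtrl (SD, n = 4 and n = 2). The first 10 bins of the body also overlapped, at 6.11 to 12.7 in siSFPQ and 7.57 and 8.11 in siCtrl. Past the end (bins 401 to 500) the signal was 5.83 to 11.97 in siSFPQ and 0.632 and 3.93 in siCtrl.

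**Figure D3:**
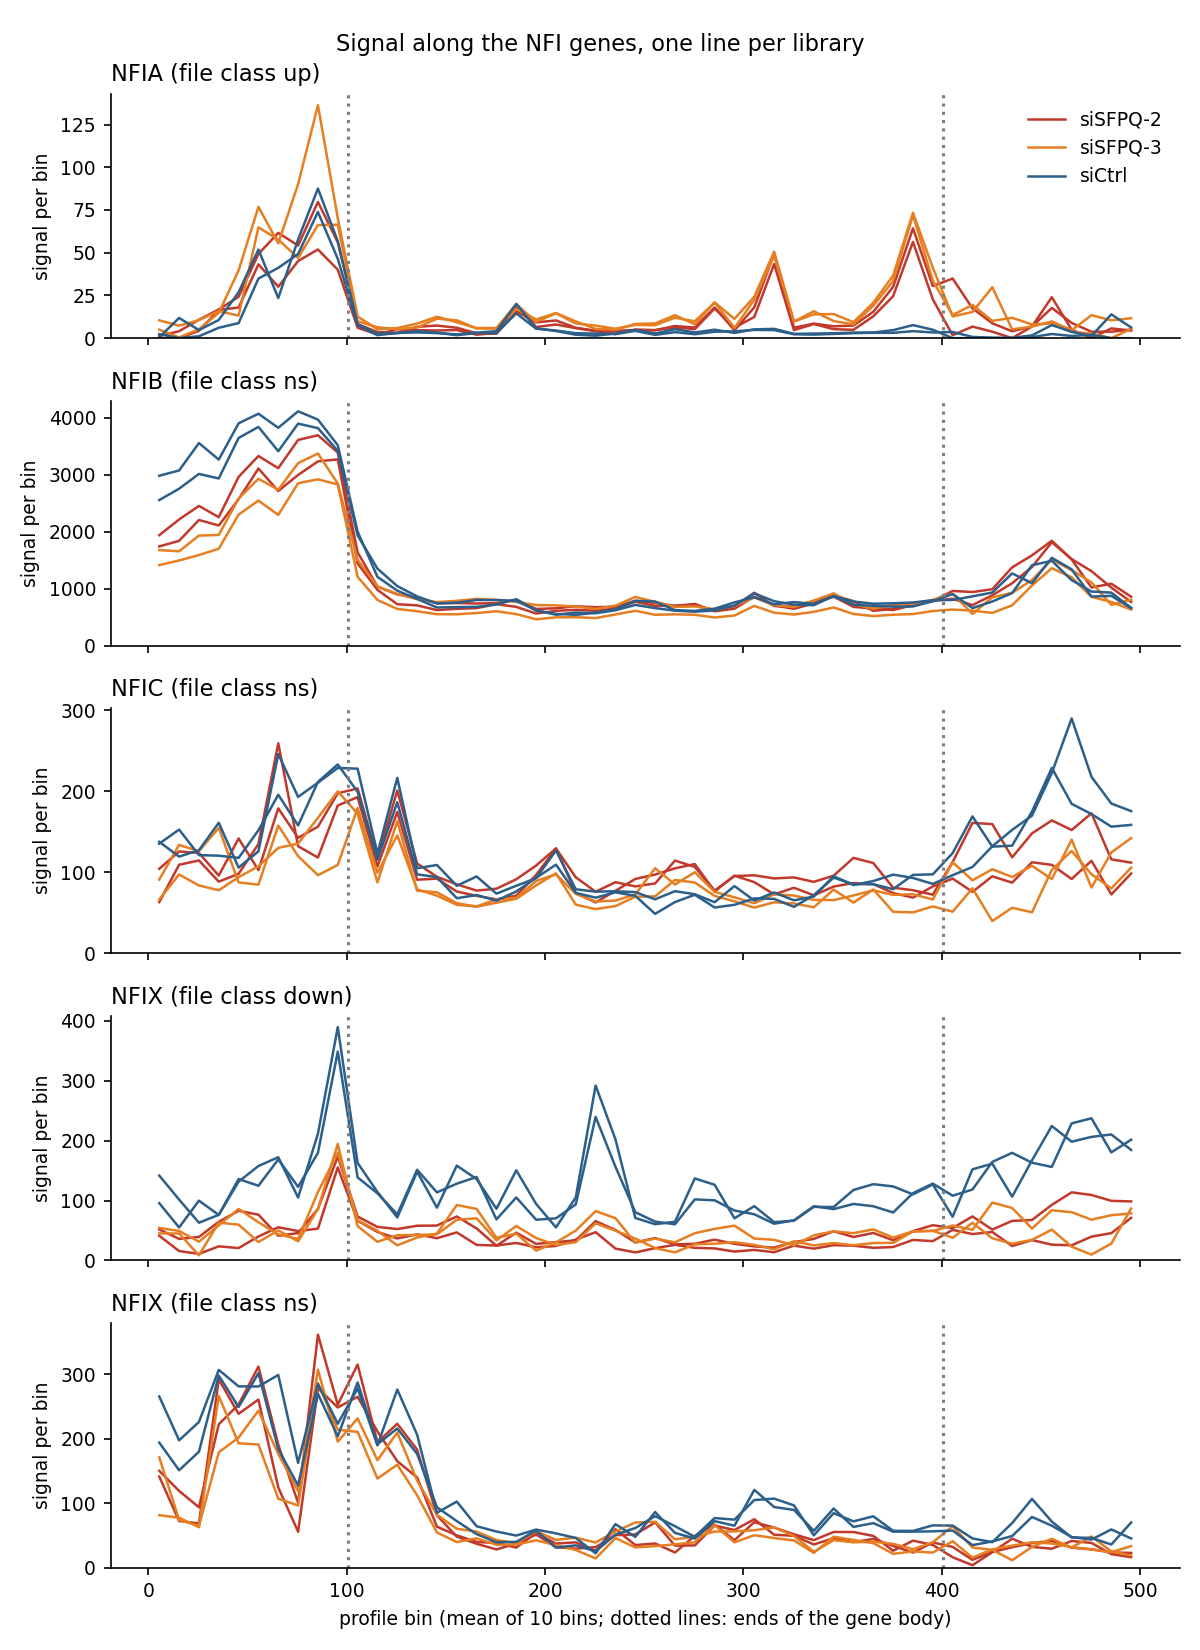
Signal per bin (vertical axes from 0) along the profiles of NFIA, NFIB, NFIC and both NFIX profiles, averaged over 10 bins (horizontal axis, bins 1 to 500), one line per library, coloured by siSFPQ-2, siSFPQ-3 and siCtrl. Dotted lines bound the gene body. In NFIA all siSFPQ lines lie above both siCtrl lines in 24 of 30 body blocks. The gap is widest at peaks in bins 311 to 320 and 381 to 390.

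NFIB had lower signal in siSFPQ in its upstream bins and its 5' segment, while its body as a whole overlapped between the groups. Since its model is not given, the upstream bins may lie within NFIB. Its 5' segment had 883, 775, 891 and 654 per bin in siSFPQ libraries, against 969 and 916 in siCtrl. The first 10 bins of its body had 1636, 1444, 1502 and 1208 per bin in siSFPQ libraries, against 1934 and 2001 in siCtrl. Upstream it had 2895 and 2578 per bin in siSFPQ-2 libraries and 2487 and 2193 in siSFPQ-3 libraries, against 3328 and 3627 with siCtrl, so that no siSFPQ library reached a siCtrl library. The upstream signal was 3.55 ± 0.262 times that of the body in siSFPQ and 4.45 ± 0.276 times in siCtrl (SD, n = 4 and n = 2). The gap was wider in bins 1 to 50, at 1699 to 2364 in siSFPQ and 2980 and 3355 in siCtrl. The body held 589 to 784 per bin in siSFPQ and 780 and 782 in siCtrl, overlapping. Its 5' segment had 37.1% ± 1.00 of body signal in siSFPQ and 40.2% ± 1.54 in siCtrl, and its 3' segment 32.7% ± 0.676 and 32.6% ± 0.601.

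NFIB-AS1, an antisense transcript that overlaps NFIB from 14317087 to 14358564 on chromosome 9, had no value in the table used but has a profile in class ns. Its body signal was 108, 91.7, 95.7 and 82.7 per bin in siSFPQ libraries, against 133 and 146 in siCtrl. All 4 siSFPQ libraries were below both siCtrl libraries, as in the upstream bins of NFIB. Since the strand of the profiles is not given, reads of the antisense transcript and of NFIB cannot be told apart here. NFIA-AS1, antisense within NFIA, had a body signal of 0 in 3 siSFPQ libraries and 0.276 in the other, against 0.290 and 0.580 in siCtrl. NFIA-AS2 had 0.539 to 0.590 per bin in siSFPQ and 0.508 and 0.527 in siCtrl over its body, and 3.01 to 7.07 and 0.701 and 1.32 over the bins before it. NFIX-AS1, which overlaps NFIX from 13013888 to 13015153 on chromosome 19, had no value in the table used.

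NFIC overlapped between groups over its body as a whole and was lower in siSFPQ on both flanks. The middle segment had 32.5% ± 1.06 of its body signal in siSFPQ and 27.7% ± 0.675 in siCtrl (SD, n = 4 and n = 2), and the 3' segment 28.9% ± 1.24 and 30.1% ± 1.56. After the end, NFIC had 141, 94.6, 109 and 78.8 per bin in siSFPQ libraries, against 163 and 175 in siCtrl, which is 1.59 times the siSFPQ level. Upstream the values were 116 to 137 in siSFPQ and 160 and 165 in siCtrl. Signal past the end was 1.21 ± 0.191 times that of the body in siSFPQ and 1.88 ± 0.0363 times in siCtrl (SD, n = 4 and n = 2).

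The class down profile of NFIX was lower along its whole length. All 30 blocks of the body were lower in every siSFPQ library than in both siCtrl libraries. The body had 42.5 and 28.6 per bin in siSFPQ-2 libraries and 46.9 and 37.3 in siSFPQ-3 libraries, against 101 and 113 with siCtrl, a siCtrl level 2.77 times that of siSFPQ. A local peak in bins 221 to 230, at 240 and 292 in siCtrl, had 47.1 to 82.3 in siSFPQ. The share of the 3' segment was 28.9% ± 1.40 in siSFPQ and 29.4% ± 0.277 in siCtrl.

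In the class ns profile of NFIX the groups were closer at the 5' end. Its 5' segment had 120, 106, 108 and 87.6 per bin in siSFPQ libraries, against 123 and 137 in siCtrl, and its 3' segment 44.0, 49.2, 42.3 and 36.3, against 77.6 and 75.5. The siCtrl level was thus 1.23 times that of siSFPQ in the 5' segment and 1.78 times in the last. Of 30 blocks 18 were lower in all siSFPQ libraries, 4 in the 5' segment, 4 in the middle and 10 in the last. The 2 profiles of 1 gene therefore gave different sizes of change, and the table's value is close to that of the class down profile.

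The shift along the gene was summed up as the log2 ratio of signal in the 3' over the 5' segment of the body, for 25802 profiles with signal in both windows of all libraries. NFIA had ratios of 1.85 and 1.75 in siSFPQ-2 libraries and 1.62 and 1.61 in siSFPQ-3 libraries, against -0.56 and -0.35 with siCtrl. The sign differed between the groups, and siSFPQ exceeded siCtrl by 2.17 (SE 0.17). NFIX lay on the other side, with -1.45, -1.11, -1.35 and -1.27 in siSFPQ libraries, against -0.66 and -0.86 in siCtrl, in its class ns profile (difference -0.53, SE 0.19). NFIB had -0.24, -0.09, -0.24 and -0.16 in siSFPQ libraries, against -0.36 and -0.24 in siCtrl (difference 0.12, SE 0.16), and the siSFPQ ratios were all higher by a margin smaller than their spread. The class down profile of NFIX (-0.21, SE 0.20) and NFIC (0.07, SE 0.16) overlapped between groups.

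Over all profiles the median difference was 0.12, with -1.22 at the 5th percentile and 1.26 at the 95th. All siSFPQ values lay on one side of both siCtrl values in 33.8% of profiles, above in 22.6% and below in 11.2%. NFIA and NFIB were among the first and the class ns profile of NFIX among the second, and nothing is read from that. The limma fit called 0% of profiles in siSFPQ over siCtrl at an adjusted p under 0.05, while 20.3% had an unadjusted p under 0.05. Restricted to the 16639 profiles with a mean body signal of at least 5, a filter added after the data were seen, it called 2.75%, 2.06% higher and 0.691% lower. Among 2273 profiles of protein-coding genes with spans of 100 to 500 kb, the range that holds all 4 members, 28.2% had all siSFPQ values above and 15.9% all below both siCtrl values. The median difference of these profiles was 0.10, and 5 of them had a larger difference than NFIA, as did 1.02% of all profiles. NFIA was chosen with this shift known, so its rank is a description. Between the siRNAs the ratio of NFIA differed by -0.18 for siSFPQ-3 over siSFPQ-2 (SE 0.19, limma adjusted p = 0.975), and 0% of profiles were called (5.52% at an unadjusted p under 0.05). The other members had differences between -0.11 and 0.12 (limma adjusted p 0.989 to 0.999).

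**Figure D4:**
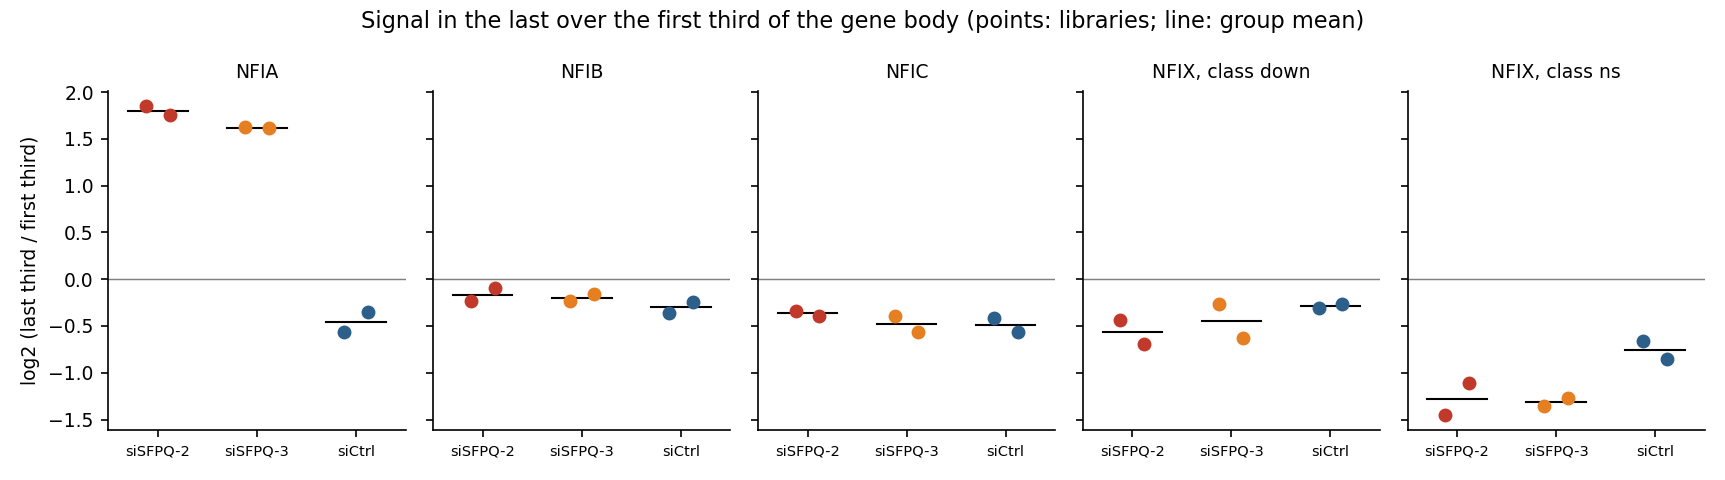
Log2 ratio of signal in the 3' over the 5' segment of the gene body (vertical axis, shared) for each NFI profile in the libraries of siSFPQ-2, siSFPQ-3 and siCtrl; points are libraries and lines group means. NFIA is between 1.61 and 1.85 in siSFPQ and below 0 in siCtrl, and the class ns profile of NFIX is lower in siSFPQ.

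**Figure D5:**
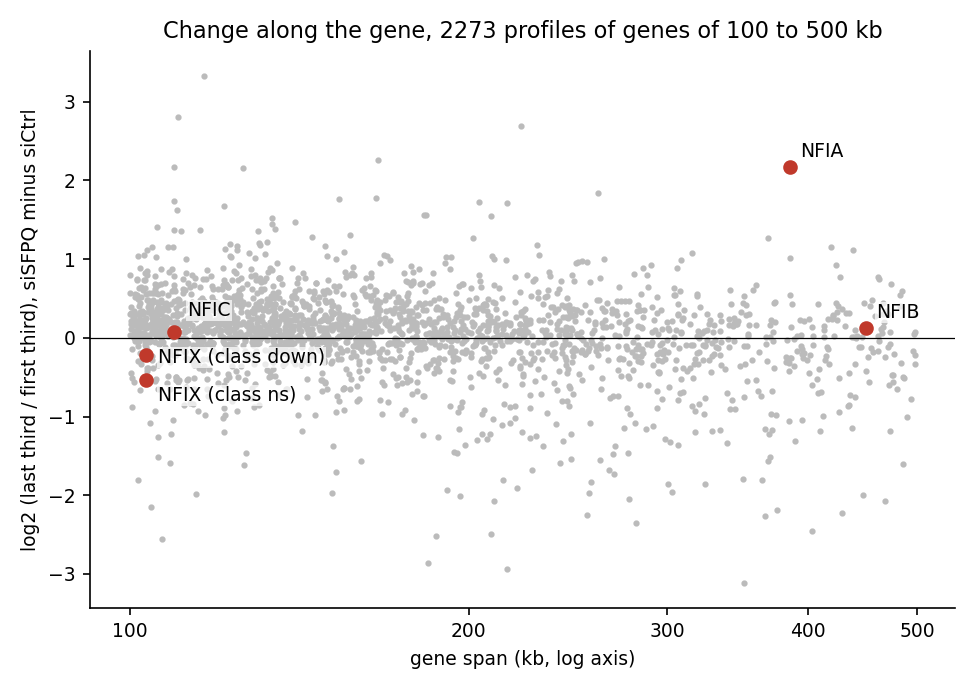
Difference of that log2 ratio, siSFPQ minus siCtrl (vertical axis), against RefSeq gene span in kb (log axis) for 2273 profiles of genes of 100 to 500 kb (grey), with the NFI profiles in red. NFIA lies at 2.17, above all but 5 of these profiles, and the other NFI profiles lie within the cloud.

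Of the 16 neighbours tested, 6 were called higher and 2 lower, a share near the 48.0% of all features, so nothing particular to the neighbourhood is read from it. The higher calls include CER1 and SMIM24, which passed the filter only through siSFPQ libraries. LINC01748, a long non-coding gene 455 kb from NFIA, rose by 0.85 on the log2 scale (limma adjusted p = 5.76e-04). On the other side PATJ, a cell polarity scaffold gene 280 kb away, rose by 0.93 (limma adjusted p = 4.54e-05). TM2D1, which lies between NFIA and PATJ, had a log2 fold change of 0.01 (SE 0.10, limma adjusted p = 0.954). Beside NFIB, LINC01235 rose by 1.04 (limma adjusted p = 9.82e-05), with 1874, 1610, 1656 and 1244 reads in siSFPQ libraries against 815 and 722 in siCtrl. CER1, a secreted BMP and Nodal antagonist 185 kb from NFIB, had 22.3, 19.9, 24.7 and 23.3 reads in siSFPQ against 4.78 and 0 in siCtrl. Both siCtrl values lie below the filter, so no p is given. ZDHHC21, a palmitoyltransferase gene 56.7 kb from NFIB, was not called (-0.27, SE 0.12, limma adjusted p = 0.0763).

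CELF5, an RNA-binding protein of the CELF family whose gene lies 62.6 kb from NFIC, rose by 0.75 (limma adjusted p = 0.00174). SMIM24, 4.77 kb from NFIC, had 15.2, 21.04, 22.6 and 21.3 reads in siSFPQ against 1.59 and 3.32 in siCtrl. Its siCtrl values lie below the filter, so no p is given. NCLN, a nicalin gene 150 kb from NFIC, fell by 0.43 (log2 fold change -0.43, limma adjusted p = 0.00616). GADD45GIP1, which codes for a mitochondrial ribosomal protein and lies 38.3 kb from NFIX, fell by 0.33 (limma adjusted p = 0.0232). Nearer on the same side, DAND5 at 20.7 kb was not called (-0.18, SE 0.15, limma adjusted p = 0.341). LYL1, a haematopoietic bHLH factor whose gene lies 0.237 kb from NFIX, had a log2 fold change of 0.32 (SE 0.30, limma adjusted p = 0.403) and 15.1 to 27.3 reads in all libraries. TRMT1, a tRNA methyltransferase gene 6.11 kb away, was not called either (-0.24, SE 0.11, limma adjusted p = 0.0988). No microRNA hairpin of RefSeq lies within the span of any NFI gene.

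Of 20 genes reported as NFI-regulated, mostly in mouse brain and in human glioma and astrocytes, 11 were tested, 3 rose and 3 fell, with a median log2 fold change of 0.19 against -0.02 over all tested features. These counts are near the shares over all features, 24.8% higher and 23.2% lower, and set the list apart in neither direction. The genes named next were picked for the smallest p in this same comparison, so their p-values describe them and do not test the list. CDH2, which codes for N-cadherin, rose most, with 3906, 4560, 6454 and 6927 reads in siSFPQ against 1231 and 1091 in siCtrl (log2 fold change 2.20, SE 0.11, limma adjusted p = 2.09e-07). SLC1A3, the glial glutamate transporter GLAST, rose by 1.62 (limma adjusted p = 1.88e-04), and CLU, the chaperone clusterin, by 0.79 (limma adjusted p = 0.00265). ALDH1L1, a folate enzyme and astrocyte marker, had a log2 fold change of -1.14 (limma adjusted p = 0.00123). GJA1, which codes for connexin 43, and EZH2, the methyltransferase of Polycomb PRC2 that NFIB represses in mouse brain, had log2 fold changes of -0.79 and -0.39 (limma adjusted p = 0.00242 and 0.00467).

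Among 18 factors that act with or upstream of NFI proteins, 11 were tested, 5 rose and 4 fell, with a median of 0.14, against 48.0% of all features called in either direction. Members called in both directions are given as single genes, and nothing particular to the list is read from the count. They were again picked for the smallest p in this comparison, so their p-values are a description. NR3C1, the glucocorticoid receptor, had 1297, 1546, 1599 and 1542 reads in siSFPQ against 508 and 479 in siCtrl (log2 fold change 1.60, SE 0.10, limma adjusted p = 1.03e-06). POU2F1 (OCT1), which joins NFI in adenovirus replication, rose by 0.79 (limma adjusted p = 1.31e-04), and RBPJ, the DNA-binding partner of Notch, by 0.56 (limma adjusted p = 6.02e-04). ESR1, the oestrogen receptor alpha, had a log2 fold change of -0.98 (limma adjusted p = 1.68e-04), CEBPA of -0.52 (limma adjusted p = 0.00125) and LHX2 of -0.39 (limma adjusted p = 0.0143). With siCtrl library 1 left out, 3 of these factors rose and 2 fell, and with siCtrl library 2 left out, 4 rose and 2 fell. Of 6 genes in microRNA circuits with NFI genes, VMP1 and MIR21 were tested, and VMP1, which hosts miR-21, a microRNA known to act on NFIB transcripts, rose by 1.82 (SE 0.13, limma adjusted p = 1.90e-06). The reads of MIR21 cannot be told from those of VMP1, within whose end it lies.

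Features with the pattern most like each member were found by the root mean square difference of centred log2 values over the 6 libraries, among 9683 features. Nearest to NFIA were TNFRSF21 (0.0859), a death receptor gene, EML4 (0.0860), a microtubule-binding protein gene, and TFDP2 (0.0868), a partner of E2F factors. TNFRSF21 had 1457 and 1431 reads in siSFPQ-2 libraries and 2037 and 1976 in siSFPQ-3 libraries, against 675 and 655 with siCtrl, and like NFIA was highest with siSFPQ-3. Nearest to NFIX were CBSL (0.0910), a near-identical copy of CBS whose value is uncertain, ZBTB18 (0.0934), a zinc finger repressor, and UNKL (0.0951). ZBTB18 had 1048 and 740 reads in siSFPQ-2 libraries and 966 and 776 in siSFPQ-3 libraries, against 2078 and 2269 with siCtrl. LERFS, SNX29 and SOS1 lay nearest to NFIB (0.0324 to 0.0403) and MLST8, AP1G2 and NFU1 to NFIC (0.0341 to 0.0388). Few features came within 0.1 of NFIA (4) or NFIX (3), while 234 did for NFIB and 471 for NFIC. Likeness over 6 libraries of 3 groups is a description and holds no test.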

How the data were processed

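PRO-seq libraries of SBC-3 cells were analysed from the deposited files. The authors deposited a table of read counts divided by a size factor per library (unit signal), as the values show: they are whole multiples of 0.797 to 1.11 per read in 100% of cases at a tolerance of 0.1. Its log2 fold changes are the authors' own, and its deposited p-value columns were not used. They also deposited binned signal profiles. The submitters' processing notes list as tools DESeq2 1.38.1, Bowtie2, UMI-tools, SAMtools 1.3.1 and cutadapt 1.14, and as builds hg38 and dm6. The sources used here do not say whether a dm6 spike-in set the scaling or counting used strand.

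Of 26067 lines, 240 repeats were removed. log2(value + 1) was tested with limma (3.58.1, R 4.3.3) with a variance trend over all 6 libraries, with Benjamini-Hochberg adjustment. Fold changes of low features are understated on this scale. The profile ratio was fitted the same way without the trend. edgeR 4.0.16 and DESeq2 1.42.0 were run on the recovered reads as alternatives, and the scripts were tested on simulated data. The 2 libraries of a group differed by more than counting noise (chi-square per degree of freedom 11.0 to 24.2).

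The members, gene lists and markers were chosen with earlier results of these data known. Named were the 4 members and their antisense features, the nearest 2 tested features on each side, the 3 most alike features, and SFPQ. Up to 3 called genes per list and direction were also named, those with the smallest p. RefSeq names and spans (GRCh38.p14) matched 19181 of 25827 features. Promoter sequences are RefSeq's.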

Additional observations from a re-analysis of the deposited data

How the results depend on the processing

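Pseudocounts of 0.5 and 5, other filters, other scalings, edgeR, DESeq2 and each library left out were tried. Under these, the log2 fold changes of the 4 members in siSFPQ over siCtrl moved by less than the spread between libraries. Without single libraries they ranged between 1.25 and 1.36 for NFIA, -1.57 and -1.32 for NFIX, -0.19 and 0.01 for NFIB and -0.07 and -0.01 for NFIC. The replicate numbers were not taken as pairs, since no label states a pairing. Correlations of deviations were 0.053 between siSFPQ-2 and siCtrl, 0.059 between siSFPQ-3 and siCtrl, and 0.382 between siSFPQ-3 and siSFPQ-2. The last is the comparison in which members were tested. Each group holds both replicate numbers, so a replicate block cannot change these log2 fold changes, only their p. The count of features between the siRNAs, 17 higher and 5 lower, depended on most settings. It was 572 and 188 with the replicate block, 208 and 47 with DESeq2, 40 and 11 with edgeR, 5 and 0 at a pseudocount of 0.5, 3 and 0 with a filter of 50, 1 and 0 with equal totals, 0 and 0 with only the groups compared, and 0 to 213 higher and 0 to 95 lower without single libraries. NFIA between the siRNAs stood at 0.58 with DESeq2 (adjusted p = 0.0309) and with the replicate block (adjusted p = 0.0110), which both called it. Its adjusted p was 0.234 with equal totals, 0.206 with only the groups compared and 0.459 without siSFPQ-2 library 2. Without single libraries, differences between the siRNAs changed sign: NFIB ranged between -0.27 and 0.12, NFIX between -0.11 and 0.39. Features lower in siSFPQ numbered 2463 without the first and 2529 without the second siCtrl library, and 2463 to 5205 over all libraries left out. Factors acting with NFI then numbered 3 to 5 higher and 2 to 4 lower, and NFI-regulated genes 3 to 4 higher and 2 to 4 lower.

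The profile ratio of NFIA in siSFPQ over siCtrl was 1.72 with windows that split the body in the middle, 1.74 without the highest 5 bins of each window, and 2.06 to 2.27 without single libraries. NFIC was at 0.21 with those windows. Profiles called higher and lower numbered 0 and 0, and 343 and 115 with the signal filter, which tests fewer profiles. Between the siRNAs the class ns profile of NFIX stood at 0.0203 with those windows. Without single libraries the class ns profile of NFIX lay between -0.21 and 0.14, its class down profile between -0.0668 and 0.303 and NFIB between -0.104 and 0.0376. The cause of these changes was not tested. With 2 libraries per group and 275 to 357 siCtrl reads over NFIA, its profile in siCtrl rests on few reads per bin.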
